A study of Homo sapiens with 114 samples.

Results

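The genes described here are 10 transcripts that respond quickly to growth factor signalling or restrain it, namely EGR1, IER2, IER3, DUSP1, DUSP4, DUSP5, DUSP6, SPRY2, SPRY4 and PHLDA1. They were chosen by symbol and are 10 of the 19775 genes that the arrays measure. Of their 23 probe sets, meaning the groups of short array oligonucleotides that report a transcript, the one with the highest mean over all arrays stood for each gene. Of the 10 genes, 9 passed the filter on low values, a log2 level above 4 on at least 3 arrays of a comparison family, and were tested in every family. DUSP4 did not pass in any family.

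The cells were HK-2, an immortalized line of human renal proximal tubular epithelium, and RNA was measured on Affymetrix arrays in 38 groups of 3 labelled biological replicates. Values are log2 levels per probe set after GCRMA, and levels of different genes are not compared. There were 26 treated groups and 12 control groups, and the controls received vehicle for the same time. Compounds are known only by the labels' abbreviations: 5 of them (CsA, Fk, Ra, CdCl and Di) have a single dose and were sampled after 12 and 48 h. Aa, Nnm and Kbr have doses labelled high and low and were sampled after 24 and 48 h; the same holds for Ota, with 24 and 72 h. The pairs Nnm with Kbr, Fk with Ra and CdCl with Di were each set against common controls, and the remaining compounds had their own. Titles of the CsA arrays carry the words lab 3. Every culture, control or treated, grew in medium with 10 ng/ml recombinant EGF, along with hydrocortisone, insulin, transferrin and selenite, so each control level is a level under EGF. HK-2 is a single immortalized line, and in such bulk samples fewer cells and less RNA per cell cannot be told apart.

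EGF binds its receptor and activates the RAS, RAF, MEK and ERK kinases in turn. ERK and its partner kinases then switch on immediate early genes such as EGR1 and IER2 without new protein synthesis. A second wave of products works against the cascade: dual-specificity phosphatases (DUSP) remove the activating phosphates from MAP kinases, and Sprouty proteins (SPRY) act nearer the receptor. In kidney epithelium this pathway is known for its part in proliferation after injury.

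The labelled cell type was checked against markers. All 6 epithelial markers (KRT8, KRT18, KRT19, EPCAM, CDH1, CDH2) had group means above 4 in all 38 groups. Of the 10 proximal tubule markers measured, 9 were never above a mean of 4, among them LRP2, CUBN, AQP1 and SLC34A1, and GGT1 reached 4.52 at its highest. Fibroblast markers COL1A1 and DCN were above 4 in every group, whereas COL1A2, COL3A1 and PDGFRB were not in any, and no leukocyte, endothelial or distal tubule marker measured was. Fk 12 h replicate 3 and Ra 48 h replicate 2 stood furthest from all other arrays, with highest correlations to any other array of 0.961 and 0.972. These were taken over genes above log2 4 on at least 3 arrays, each by the probe set that stood for it. The Ota high 24 h arrays had upper quartiles of log2 level between 7.86 and 8.17, and their mean of 8.04 compared with 8.62 in their controls. In Ota high 24 h the median change of all genes was −0.29, and quantile normalization moved that median up by 0.22, so Ota changes are best read against it; in Ra 48 h the median was −0.19 and moved up by 0.20.

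Across the 26 treated groups, 73 of 234 tests of a gene in a treated group passed the limma test at a Benjamini-Hochberg adjusted p under 0.05, 47 higher and 26 lower than the controls. In 8 of the 26 groups none of the 9 genes passed. DUSP1 rose in 13 groups and fell in 1, IER3 rose in 10 and fell in 2, and DUSP5 rose in 7 and fell in 1. EGR1 went the other way more often, falling in 9 groups and rising in 2. The 73 calls are 31.2% of the tests, against 26.9% of all tests of all genes in the same comparisons, which is near the background. The counts share controls between groups and are not independent.

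**Figure D1:**
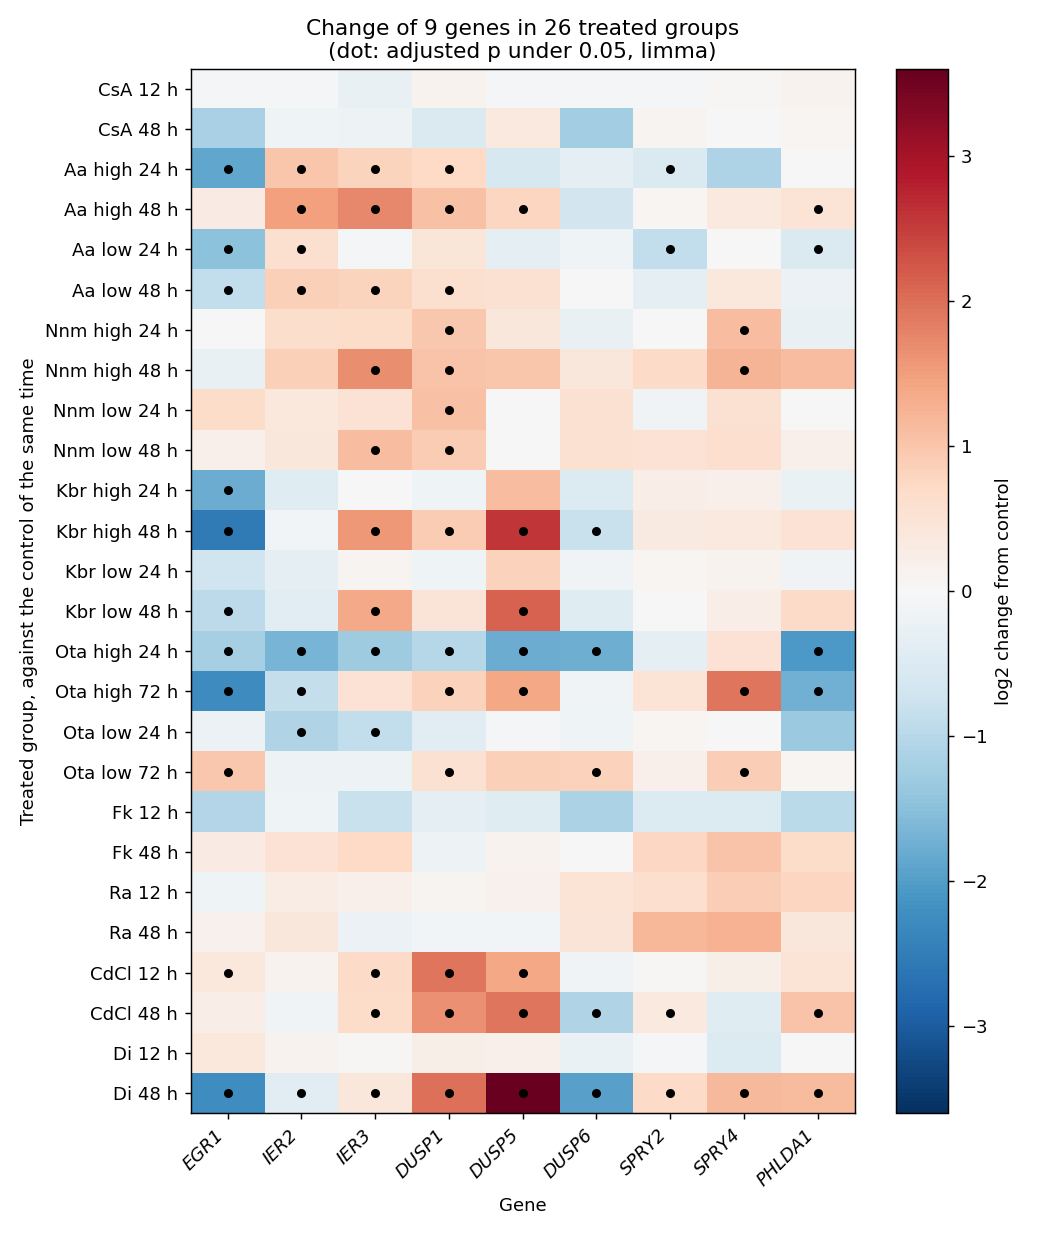
Each row is a treated group against the controls of the same time and each column a gene; colour gives the log2 change and a dot marks an adjusted p under 0.05. DUSP1 and DUSP5 are red in Di 48 h and in both CdCl groups, EGR1 is blue with a dot in 9 groups of Aa, Kbr, Ota high and Di, and the CsA, Fk and Ra rows hold no dot.

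Members called were read against the share of all genes called by the same rule, given in brackets as higher and lower. In Di 48 h 6 members rose and 3 fell (21.4% and 25.9%, 47.4% together), all 9 that were tested. Ota high 24 h lowered 7 and raised none (21.4% and 43.6%, 65% together), and Ota high 72 h moved 3 each way (25.3% and 37.9%, 63.2% together). PHLDA1 counts as lower in both groups by 217996_at (−2.06 and −1.74), and 217997_at and 218000_s_at were called lower there too. By 225842_at (2.86 and 2.92) PHLDA1 was called higher in both groups, and at 72 h by 217998_at and 217999_s_at too. CdCl raised 4 and lowered none at 12 h (14.5% and 34.3%, 48.7% together), and raised 5 and lowered 1, DUSP6, at 48 h (22.9% and 23.5%, 46.4% together). Upper quartiles of the treated arrays lay wholly below those of the controls in Ota high 72 h (means 8.34 and 8.6), Ota low 24 h (8.49 and 8.62), CdCl 12 h (8.52 and 8.65) and Di 12 h (8.57 and 8.65), and so did the ACTB 3′ to 5′ difference in Di 12 h (1.43 and 1.95). The median change of all genes was −0.17 in CdCl 12 h and −0.15 in Ota high 72 h. The part of these measures in the calls was not tested. The median member change was −1.27 in Ota high 24 h against −0.29 for all genes, and 0.68 in Di 48 h against −0.02.

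Aa high raised 3 and lowered 2 at 24 h (26% and 23.9%, 49.9% together) and raised 5 at 48 h (29.8% and 34.5%, 64.3% together). Aa low raised 1 and lowered 3 at 24 h (10.2% and 13%, 23.2% together) and raised 3 and lowered 1 at 48 h (17.7% and 19.3%, 37% together). PHLDA1 counts as lower in Aa low 24 h by 217996_at (−0.51), and 218000_s_at was called lower there too. By 225842_at (1.04) and 217999_s_at (0.74) PHLDA1 was called higher in that group. In limma without a block for the replicate number, Kbr high lowered only EGR1 at 24 h (8.17% and 13.4%, 21.6% together). At 48 h it raised 3 and lowered 2 (22.2% and 28.9%, 51.1% together). Kbr low raised 2 and lowered 1 at 48 h (15.2% and 14.3%, 29.4% together). Nnm high raised 2 at 24 h (17.6% and 18.4%, 35.9% together) and 3 at 48 h (15.4% and 12.3%, 27.7% together), and Nnm low raised DUSP1 at 24 h (9.39% and 9.13%, 18.5% together) and 2 at 48 h (8.39% and 5.73%, 14.1% together). Ota low lowered 2 at 24 h (3.72% and 9.99%, 13.7% together) and raised 4 at 72 h (9.01% and 7.02%, 16% together).

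Same-numbered replicates deviated together in the CsA, Aa, and Nnm and Kbr families, and with the number as a block limma called further members. In Aa high 24 h these were DUSP5 at −0.56 (adjusted p = 0.0198) and SPRY4 at −1.10 (adjusted p = 0.00793), and in Aa high 48 h DUSP6 at −0.67 (adjusted p = 0.00212). In Aa low they were DUSP1 at 24 h (0.45, adjusted p = 0.0244), and DUSP5 (0.56, adjusted p = 0.0245) and SPRY2 (−0.35, adjusted p = 0.0374) at 48 h. In Nnm high 48 h they were IER2 (0.85, adjusted p = 0.00883), SPRY2 (0.68, adjusted p = 0.00484) and PHLDA1 (1.12, adjusted p = 0.0254) besides DUSP5, and in Nnm high 24 h IER2 (0.63, adjusted p = 0.0388). SPRY2 in Nnm low 48 h (0.52, adjusted p = 0.0364) and DUSP5 in Kbr high 24 h (1.12, adjusted p = 0.0248) were the others. The share of all genes called with the block is not given here or below. Calls with the block are therefore not read against a background.

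In Kbr low 24 h 0 members passed in limma (1.36% of all genes), and 1 had an unadjusted p under 0.05. Without a block no member passed in Di 12 h, where 11.8% of all genes did and 3 members had an unadjusted limma p under 0.05. Of the probe sets that did not stand for a gene, 201044_x_at of DUSP1 (0.80) and 225842_at of PHLDA1 (−0.55) were called there. None passed with CsA: 0% and 0.00925% of all genes were called at 12 and 48 h, and by unadjusted p 0 and 1 members were. The CsA 48 h arrays for EGR1 read 11.19, 10.19 and 7.27 against 11.93, 11.07 and 9.17, and for DUSP6 12.16, 10.87 and 11.27 against 13.05, 12.34 and 12.63. Those of DUSP6 lay wholly below the controls; the change of −1.24 did not pass. With Fk and Ra none passed either (0.00918%, 0%, 0.0367% and 9.33% of all genes in Fk 12 h, Fk 48 h, Ra 12 h and Ra 48 h; by unadjusted p 0, 0, 0 and 1 members).

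The Fk and Ra values rest partly on the arrays that stood apart. In Fk 12 h DUSP6 read 12.57, 12.82 and 7.95, and EGR1 read 10.59, 11.06 and 7.64, so replicate 3 alone was low. In Ra 48 h SPRY2 read 9.19, 8.13 and 9.71 against 7.54, 8.04 and 7.86, and replicate 2 lay nearest the controls. In Fk 12 h the change of EGR1 was −1.07 with all arrays, and that of DUSP6 was −1.15. With Fk 12 h replicate 3 and Ra 48 h replicate 2 left out, these changes were −0.01 and 0.43. Without these arrays 3 members were called in Ra 48 h: IER2 by 1.12 (adjusted p = 0.0244), SPRY2 by 1.64 (adjusted p = 0.00655) and SPRY4 by 1.88 (adjusted p = 0.00962). That leaves 2 arrays in each group and was chosen after seeing the data. The share of all genes called in that fit is not given, so these calls are not read against a background.

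EGR1 encodes a zinc finger transcription factor and is among the most studied immediate early genes. Its start region is printed because EGR1 carries the classic response element bound by serum response factor, the CArG box, and because EGR1 fell in more groups than any other member. The 250 bases before the start site, chr5:138465229-138465478 on the plus strand of GRCh38.p14 in RefSeq, are given with the CArG boxes in capitals, beside the same window of DUSP1, chr5:172771196-172771445 on the minus strand, with the motif TGACGTCA in capitals.

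EGR1: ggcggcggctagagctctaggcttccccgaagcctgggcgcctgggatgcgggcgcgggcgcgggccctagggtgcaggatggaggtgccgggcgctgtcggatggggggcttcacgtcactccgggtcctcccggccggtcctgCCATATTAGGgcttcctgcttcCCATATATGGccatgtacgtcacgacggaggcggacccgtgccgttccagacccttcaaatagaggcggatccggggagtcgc
DUSP1: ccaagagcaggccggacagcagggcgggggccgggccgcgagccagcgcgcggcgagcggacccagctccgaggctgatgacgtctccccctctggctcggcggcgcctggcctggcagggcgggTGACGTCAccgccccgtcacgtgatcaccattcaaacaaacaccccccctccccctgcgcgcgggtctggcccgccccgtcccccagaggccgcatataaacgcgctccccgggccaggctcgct

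Upstream windows were held for 7 of the 10 genes, 9 windows in all because SPRY2 has several start sites; DUSP4, DUSP5 and IER3 had none. The CArG box, searched on both strands, occurred at 2 places in EGR1, at 105 to 96 and 83 to 74 bases before the start, and in none of the other windows of these genes. It was found in 1.16% of 35116 windows of the same length. TGACGTCA, which reads the same on both strands, occurred once in DUSP1, at 125 to 118 bases before the start, against 1.65% of all windows. The shorter TGACGT, which overlaps TGACGTCA, occurred at 2 places in EGR1 and 3 in DUSP1, against 7.1% of windows, while TGANTCA (6.57%) and CCGGAAGT (3.42%) were in none of these genes' windows.

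In control cultures the mean log2 level of EGR1 lay between 10.41 (Ota control 72 h) and 11.42 (Aa control 24 h), with a median SD within groups of 0.32 over all 38 groups. Its largest fall came with Kbr. In Kbr high 48 h the 3 arrays read 8.15, 8.29 and 8.34, and the controls read 10.92, 10.57 and 10.89. The groups did not overlap, and EGR1 fell by 2.53 ± 0.33 (standard error, n = 3 and 3, limma adjusted p = 1.77e-06), a 5.79-fold difference. In Kbr high 24 h, EGR1 fell by 1.79 ± 0.33 (adjusted p = 0.000621), and in Kbr low 48 h by 0.93 ± 0.33 (adjusted p = 0.0374). That last call was lost without replicate 1 or 3 of the treated or the control group, with changes from −1.14 to −0.76 over single arrays left out. Kbr low 24 h gave −0.72, which did not pass.

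With Di, EGR1 was not called at 12 h and fell at 48 h. The 3 Di 48 h arrays read 8.57, 8.68 and 8.77 and the controls 10.89, 10.96 and 10.84, so that every treated array lay below every control. EGR1 fell by 2.22 ± 0.13 (adjusted p = 2.09e-09), and its response differed between the times by −2.61 ± 0.18 (adjusted p = 6.07e-08). CdCl, which shared these controls, gave 10.91, 11.17 and 11.32 at 48 h, and CdCl exceeded Di by 2.46 ± 0.13 (adjusted p = 2.27e-09). At 12 h, EGR1 with CdCl was 0.38 ± 0.13 higher (adjusted p = 0.0208), a call on overlapping arrays that was lost without CdCl 12 h replicate 1 or 2 or control replicate 1 (0.26 to 0.48 over single arrays left out).

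Ota changed EGR1 in opposite directions by dose at 72 h. At the high dose the arrays read 8.51, 8.13 and 7.78, at the low dose 10.99, 11.49 and 11.65, and in the controls 10.39, 10.53 and 10.3. Neither treated group overlapped the controls. EGR1 fell by 2.27 ± 0.22 at the high dose (adjusted p = 3.63e-07) and rose by 0.97 ± 0.22 at the low dose (adjusted p = 0.0076), a dose difference of −3.24 ± 0.22 (adjusted p = 1.68e-08). In the Ota high 72 h group the 3′ to 5′ difference of ACTB, a measure of RNA integrity, averaged 1.93 against 1.37 in the controls with no overlap; its part in the result was not tested. At 24 h the high dose had already lowered EGR1 by 1.20 (−1.20 ± 0.22, adjusted p = 0.000212), and the low dose gave −0.20.

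Aa lowered EGR1 early. In Aa high 24 h the arrays read 9.6, 9.83 and 9.25 against 11.33, 11.54 and 11.4, and EGR1 fell by 1.86 ± 0.26 (adjusted p = 2.84e-05). By 48 h the high dose read 11.1, 11.35 and 11.55, overlapping the controls at 11.19, 10.58 and 11.38. The 2 times differed by 2.14 ± 0.36 (adjusted p = 0.00161). The low dose fell by 1.47 at 24 h (adjusted p = 0.000828) and by 0.87 at 48 h (adjusted p = 0.0153), the latter with overlapping arrays and lost without control replicate 1 or 3 or treated replicate 3 (−1.11 to −0.61 over single arrays left out). The second EGR1 probe set was called the same way in 6 of the 11 calls. In the others it was not called, and its change had the same sign.

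**Figure D2:**
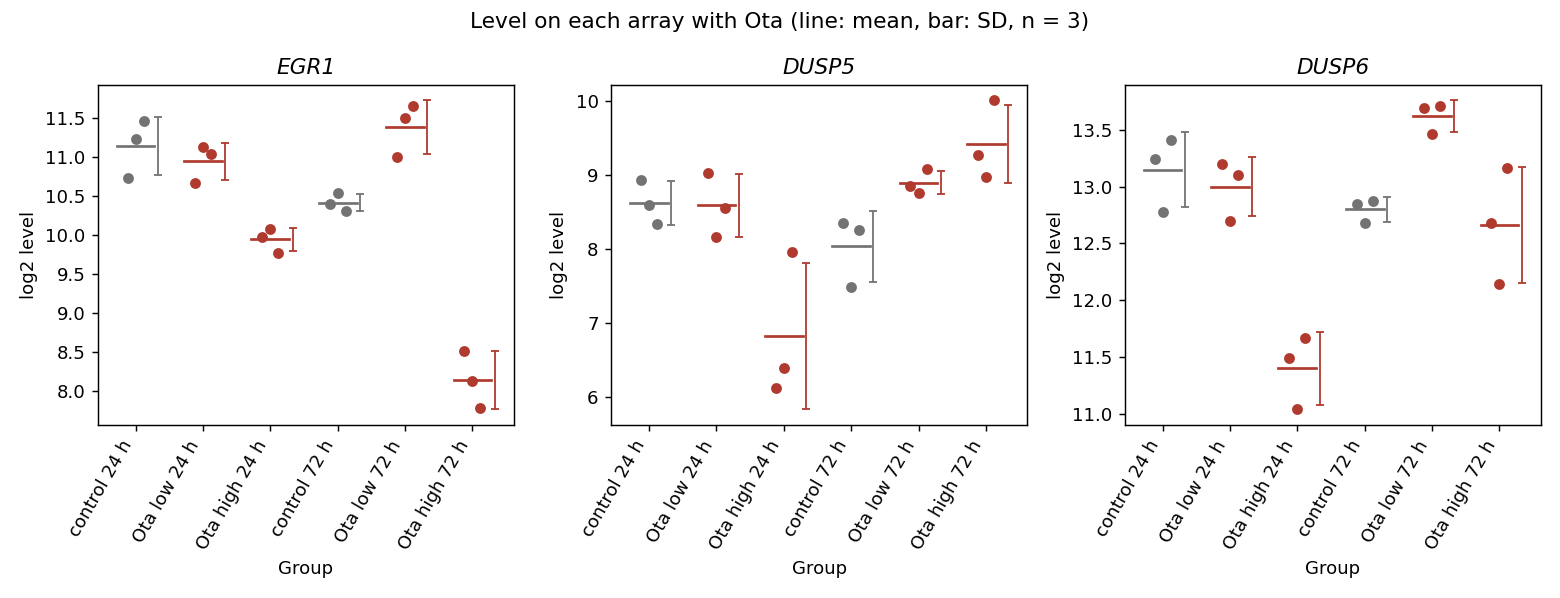
Each point is the log2 level on 1 array, the line the group mean and the bar the SD, for controls (grey) and Ota (red) at 24 and 72 h. EGR1 at 72 h separates into low-dose arrays above and high-dose arrays below the controls, and DUSP5 at the high dose lies below its controls at 24 h and above them at 72 h.

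IER2 encodes a small immediate early nuclear protein. Aa raised it in all 4 of its groups: IER2 rose by 1.00 ± 0.17 in Aa high 24 h (adjusted p = 0.000216), by 1.46 ± 0.17 in Aa high 48 h (adjusted p = 3.05e-06) and by 0.85 ± 0.17 in Aa low 48 h (adjusted p = 0.00153). The fourth, Aa low 24 h (adjusted p = 0.0254), was lost without control replicate 1 or 2 or treated replicate 1 or 3 (0.51 to 0.67 over single arrays left out). The Aa high 48 h arrays read 11.76, 11.64 and 12.13 against 10.68, 10.04 and 10.42. Every treated array was above every control, and the high dose exceeded the low one by 0.61 ± 0.17 (adjusted p = 0.00912), which was lost without Aa high 48 h replicate 3 (0.47 to 0.72 over single arrays left out). Ota lowered it: the Ota high 24 h arrays read 8.58, 8.6 and 8.54 against 10.13, 10.46 and 10.19. IER2 fell by 1.68 ± 0.13 there (adjusted p = 2.89e-08), by 1.09 in Ota low 24 h (adjusted p = 6.98e-05) and by 0.86 in Ota high 72 h (adjusted p = 3.57e-05). All 3 replicates of each of these groups lay below their controls. IER2 with Di at 48 h fell by 0.38 ± 0.12 (adjusted p = 0.0146), a call lost without Di 48 h replicate 1 or control 48 h replicate 2 (−0.43 to −0.34 over single arrays left out).

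IER3 encodes a stress-inducible early response protein that binds ERK. Its highest rises came at the later time. In Aa high 48 h the arrays read 12.48, 12.57 and 12.5 against 11.01, 10.45 and 10.91, and IER3 rose by 1.73 ± 0.16 (adjusted p = 2.39e-07) without overlap. In Kbr high 48 h it rose by 1.56 ± 0.36 (adjusted p = 0.00109), and in Kbr low 48 h by 1.37 (adjusted p = 0.00681), while at 24 h Kbr gave 0.01 and 0.09. In Nnm high 48 h the arrays read 13.06, 11.25 and 13.01 against 11.11, 10.42 and 10.75, so that replicate 2 lay closest to the controls; IER3 rose by 1.68 ± 0.36 (adjusted p = 0.00211). The rise of 1.10 in Nnm low 48 h (adjusted p = 0.0452), with overlapping arrays, was lost on leaving out any of 18 arrays of that family, among them all 3 controls of 48 h (0.87 to 1.54 over single arrays left out). The fall of 0.88 in Ota low 24 h (adjusted p = 0.0214) was lost without any control of 24 h or treated replicate 1 or 2 (−0.91 to −0.84). Ota high 24 h arrays read 9.28, 9.65 and 9.43 against 10.66, 10.81 and 10.71, and IER3 fell by 1.27 ± 0.24 (adjusted p = 0.000226). By 72 h the change was 0.51, which did not pass.

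DUSP1 encodes a nuclear phosphatase that acts on JNK and p38 as well as ERK. It was called higher in more groups than any other member. In CdCl 12 h the arrays read 12.35, 12.53 and 12.53 against 10.59, 10.39 and 10.65, which put all treated arrays above all controls. DUSP1 rose by 1.93 ± 0.10 (adjusted p = 1.76e-09) in CdCl 12 h and by 1.64 ± 0.10 (adjusted p = 8.51e-09) in CdCl 48 h. Di gave 0.22 at 12 h, not called, and a rise of 1.99 ± 0.10 at 48 h (adjusted p = 7.91e-10). By the second DUSP1 probe set, 201044_x_at, Di 12 h was called higher, by 0.80 ± 0.21 (limma adjusted p over all probe sets 0.0239). The Di 48 h arrays read 11.61, 11.93 and 11.69 against 9.79, 9.65 and 9.81 by the probe set that stood for the gene. By 201044_x_at, CdCl gave 2.89 ± 0.21 at 12 h and 1.525 ± 0.21 at 48 h, both called higher.

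DUSP1 also rose in all 4 Nnm groups, by 0.92 to 1.07. Nnm low 24 h read 12.09, 11.78 and 11.8 against 10.69, 11.09 and 10.7. At 48 h replicate 2 lay nearest the controls: Nnm high read 11.9, 11.34 and 11.96 and Nnm low 11.74, 11.15 and 11.97, against 10.32, 10.75 and 11.03. All 4 groups lay above their controls. Kbr at the same times raised it only at the high dose and 48 h, by 0.91 ± 0.21 (adjusted p = 0.000895). Nnm exceeded Kbr by 1.14 ± 0.21 at the high dose and 24 h (adjusted p = 0.000147) and by 1.22 ± 0.21 at the low dose and 24 h (adjusted p = 0.000142). With Ota high, DUSP1 fell by 1.03 ± 0.15 at 24 h (adjusted p = 1.86e-05) and rose by 0.83 ± 0.15 at 72 h (adjusted p = 0.000158). Smaller calls in Ota low 72 h (0.54) and Aa low 48 h (0.58) were lost without any control of 72 h or treated replicate 3 (0.45 to 0.60), and without control replicate 1 (0.45 to 0.68). The second DUSP1 probe set was called the same way in 8 of the 14 calls and the opposite way in none.

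DUSP5 encodes a nuclear phosphatase selective for ERK. It gave the highest rise of any member. In Di 48 h the arrays read 11.8, 11.66 and 11.41 against 8.01, 8.06 and 8.14, with a wide gap between the groups. DUSP5 rose by 3.55 ± 0.10 (adjusted p = 1.05e-12), an 11.7-fold difference, after 0.19 at 12 h. The change between the times was 3.37 ± 0.15 (adjusted p = 4.13e-10). In Aa high 48 h it rose by 0.77 ± 0.23 (adjusted p = 0.00769), lost without control replicate 2 (0.53 to 1.06 over single arrays left out). CdCl raised DUSP5 at both times, by 1.40 ± 0.10 (adjusted p = 6.91e-08) and 1.94 ± 0.10 (adjusted p = 1.25e-09).

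With Kbr at 48 h, DUSP5 read 11.99, 11.84 and 11.64 at the high dose and 11.6, 11.26 and 11.29 at the low dose, against 9.28, 8.86 and 9.65 in the controls. Neither dose overlapped the controls. DUSP5 rose by 2.56 ± 0.51 (adjusted p = 0.000246) and 2.12 ± 0.51 (adjusted p = 0.00334). Nnm high 48 h, with the same controls, read 11.18, 8.62 and 10.93: replicates 1 and 3 lay above the controls and replicate 2 below them. The change of 0.98 did not pass in limma without a block, and with the replicate number as a block it did (adjusted p = 0.0403). Kbr exceeded Nnm at 48 h, by 1.58 at the high dose (−1.58 ± 0.51 for Nnm minus Kbr, adjusted p = 0.0115). Without Nnm high 48 h replicate 2 that difference was −0.77 and no longer called. In Kbr high 24 h DUSP5 read 10.82, 10.58 and 10.82 against 9.62, 9.34 and 9.90 in the controls of 24 h, without overlap. That change of 1.12 did not pass in limma without a block and passed with it (adjusted p = 0.0248). In Ota high the arrays read 6.12, 6.4 and 7.96 at 24 h against 8.93, 8.6 and 8.34, and 9.27, 8.97 and 10.01 at 72 h against 8.36, 7.49 and 8.26. DUSP5 fell by 1.80 ± 0.41 at 24 h (adjusted p = 0.00112) and rose by 1.38 ± 0.41 at 72 h (adjusted p = 0.00761).

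**Figure D3:**
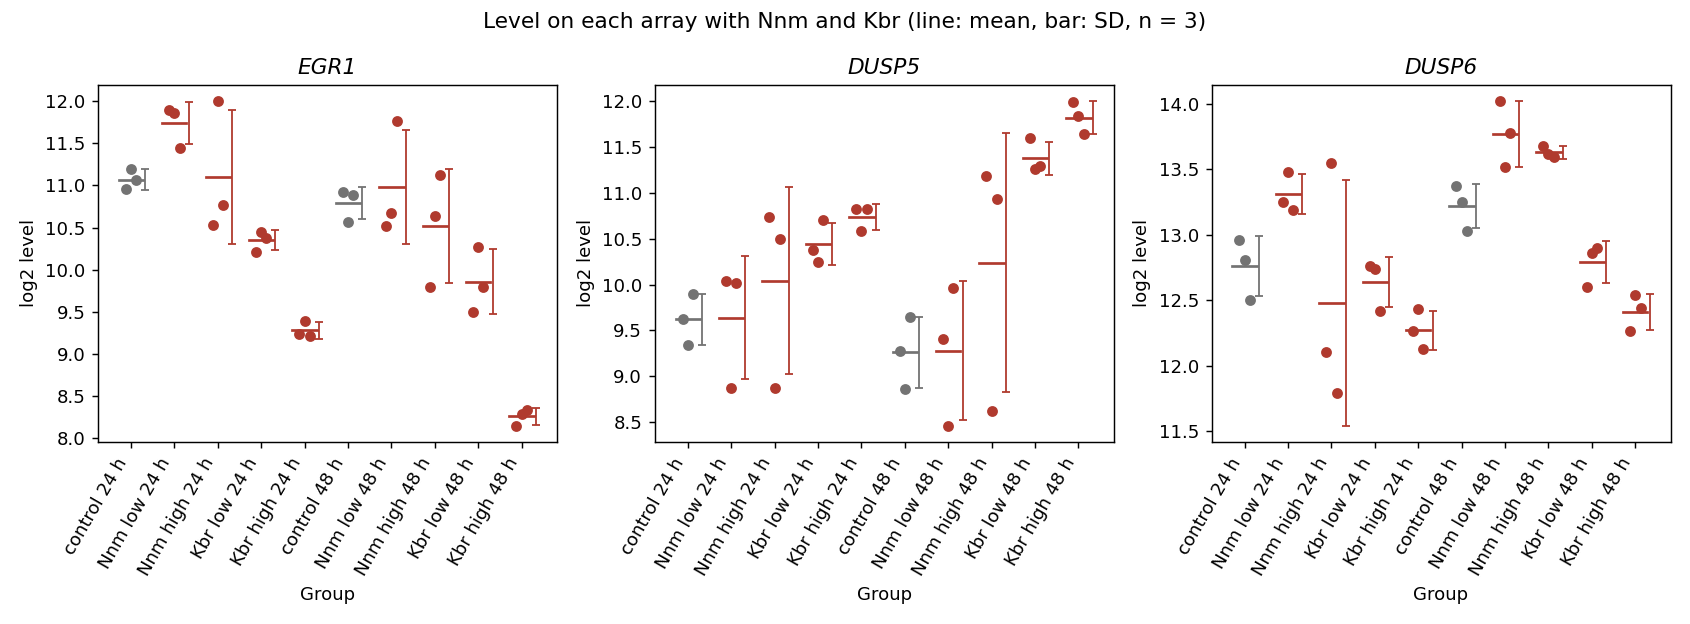
Each point is the log2 level on 1 array, the line the group mean and the bar the SD, for the shared controls (grey) and for Nnm and Kbr (red) at 24 and 48 h. Kbr high 48 h lies between 8.15 and 8.34 for EGR1 and between 11.64 and 11.99 for DUSP5, while the 3 Nnm high 48 h arrays spread from 8.62 to 11.18 for DUSP5.

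DUSP6 encodes a cytoplasmic phosphatase specific for ERK, and its transcript is widely read as a record of ERK output. Its control means ran from 12.16 to 13.22. It fell with Di at 48 h, where the arrays read 10.16, 10.15 and 10.3 against 12.06, 12.33 and 12.09. The fall was 1.96 log2 units (−1.96 ± 0.11, adjusted p = 1.25e-09). CdCl 48 h read 11.16, 10.97 and 11.12, and DUSP6 fell by 1.07 ± 0.11 (adjusted p = 9.93e-07). DUSP5 rose in both of these groups. Ota high 24 h gave 11.49, 11.04 and 11.67 against 13.24, 12.78 and 13.41, and DUSP6 fell by 1.74 ± 0.24 (adjusted p = 1.13e-05). Kbr high 48 h gave a fall of 0.80 (−0.80 ± 0.27, adjusted p = 0.0155), lost without replicate 1 of either group (−0.89 to −0.72 over single arrays left out). The single rise, 0.82 in Ota low 72 h (adjusted p = 0.0287), was lost without any control of 72 h or treated replicate 1 or 3 (0.76 to 0.90). All 3 DUSP6 probe sets were called in the same direction in each of these 5 groups.

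**Figure D4:**
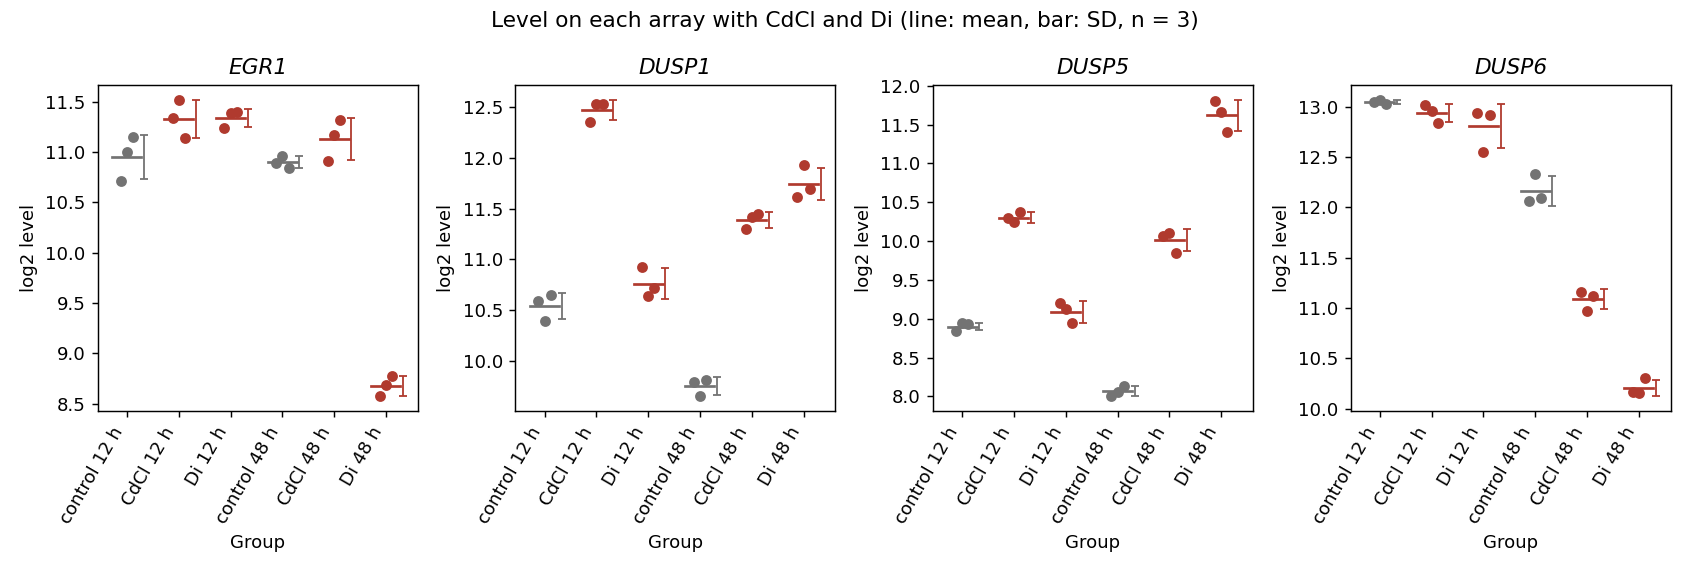
Each point is the log2 level on 1 array, the line the group mean and the bar the SD, for the shared controls (grey) and for CdCl and Di (red) at 12 and 48 h. In Di 48 h DUSP5 lies between 11.41 and 11.8 and DUSP1 between 11.61 and 11.93, above the controls, while EGR1 and DUSP6 lie below them.

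DUSP4 encodes a further nuclear phosphatase. None of its 3 probe sets exceeded log2 4 on any array, and the highest single value was 3.85. It was not detectable above the filter here, which does not show that the transcript was absent.

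SPRY2 and SPRY4 encode Sprouty proteins, which restrain receptor tyrosine kinase signalling. SPRY4 lay close to the filter in many groups, with control means from 4.41 to 5.59. In Ota high 72 h its arrays read 6.9, 6.35 and 6.21 against 4.52, 4.65 and 4.48, without overlap. SPRY4 rose by 1.93 ± 0.28 there (adjusted p = 1.88e-05), and by 1.16 ± 0.19 in Di 48 h (adjusted p = 0.000131). Nnm high raised it by 1.12 at 24 h (adjusted p = 0.0211) and 1.22 at 48 h (adjusted p = 0.0172), each lost without treated replicate 1 or 3 or control replicate 3 of that time (0.87 to 1.33 and 0.73 to 1.74 over single arrays left out). In Ota low 72 h it rose by 0.88 (adjusted p = 0.0423), a call lost without any of 10 arrays of that family, all 6 of the compared groups among them (0.75 to 0.97). In Aa high 24 h the arrays read 4.42, 4.66 and 2.9 and the change of −1.10 was not called in limma without a block, but was called lower with the replicate block (adjusted p = 0.00793).

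SPRY2 changed less. It rose by 0.68 ± 0.11 in Di 48 h (adjusted p = 0.000105), where the arrays read 8.16, 8.3 and 8.38 against 7.49, 7.77 and 7.53. SPRY2 fell by 0.88 ± 0.18 in Aa low 24 h (adjusted p = 0.0024), where they read 7.05, 6.99 and 7.02 against 8.01, 7.89 and 7.81. Neither pair of groups overlapped. The fall of 0.52 in Aa high 24 h (adjusted p = 0.0229) and the rise of 0.34 in CdCl 48 h (adjusted p = 0.0177) rested on single arrays. The first was lost without control replicate 1 or treated replicate 3 (−0.59 to −0.42), and the second without replicate 1 or 3 of either group (0.29 to 0.43).

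PHLDA1 encodes a pleckstrin homology-like domain protein induced by growth factors. Its probe sets disagreed. By 217996_at, which stood for the gene, PHLDA1 in Ota high 24 h read 7.78, 5.92 and 7.7 against 9.59, 8.7 and 9.29, and fell by 2.06 ± 0.45 (adjusted p = 0.000905). By 225842_at the same arrays read 10.16, 9.84 and 9.92 against 7.33, 6.94 and 7.07, a rise of 2.86 ± 0.29 (adjusted p over all probe sets 4.52e-07). The treated arrays thus lay wholly below the controls by one probe set and wholly above by the other, a gap of 4.92.

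The split was not confined to that group. In Ota high 72 h, 217996_at and 217997_at gave −1.74 and −1.45, while 217998_at, 217999_s_at and 225842_at gave 0.97, 0.86 and 2.92; all 5 passed. The sixth, 218000_s_at, read 3.55, 3.26 and 3.57, under the filter of 4, and was also called lower, but its size is not given because the low values are not above the filter. In Aa high 48 h, 225842_at gave 2.88 against 0.50 for 217996_at, both called. In CdCl 48 h all 6 probe sets were called higher, by 0.62 to 1.71. In Di 48 h 5 of the 6 were called higher and 217997_at gave 0.23, not called. Which transcripts the probe sets recognise was not tested, so a direction for PHLDA1 with Ota or Aa is a direction of a probe set.

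**Figure D5:**
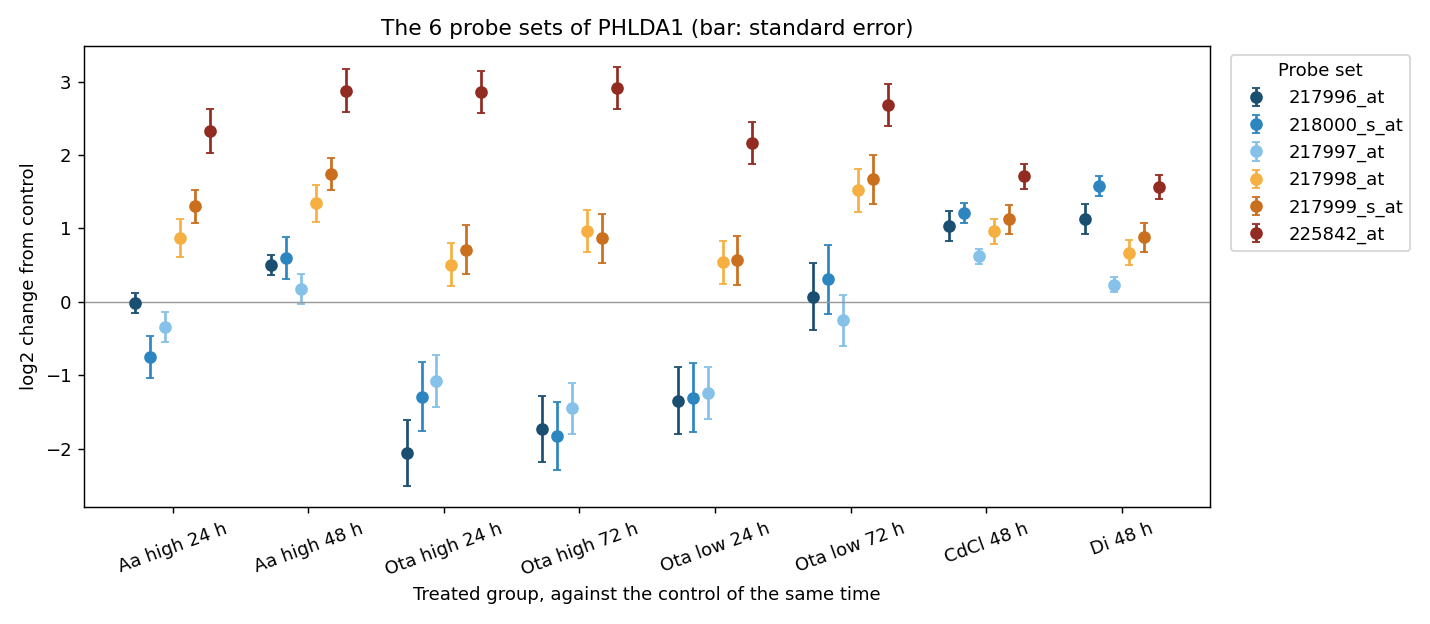
Points are log2 changes from control and bars standard errors for the 6 probe sets of PHLDA1 in 8 treated groups. In Ota high 24 h, 217996_at lies at −2.06 and 225842_at at 2.86, while in CdCl 48 h all 6 lie above 0; treated levels of 218000_s_at in both Ota high groups and Ota low 24 h are under log2 4, so its points there are not sizes of change.

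Dose made a called difference in 19 of 72 tests. That is 26.4% of the tests, against 24.6% of all tests of all genes, which is near the background. In Aa 48 h the doses differed in 5 members, EGR1, IER2, IER3, DUSP1 and PHLDA1, all higher at the high dose, where 44.8% of all genes differed, and in Aa 24 h in IER3 and PHLDA1 (26.4%). The DUSP1 difference at 48 h was lost without any of the 6 arrays compared (0.42 to 0.50), and that of PHLDA1 at 24 h without replicate 2 of either group (0.40 to 0.63). With the replicate block, 5 and 7 members differed between Aa doses at 24 and 48 h, and the share of all genes in that fit is not given. Ota doses differed in 5 members at 24 h (58.9%), with DUSP6 at −1.60 ± 0.24 (adjusted p = 3.81e-05) and DUSP5 at −1.76 ± 0.41 (adjusted p = 0.00161). At 72 h they differed in 6 (57.8%), of which IER3 was lost without Ota high replicate 3 or Ota low replicate 1 (0.33 to 0.97). Kbr high and low differed in EGR1 alone at 48 h, by −1.60 ± 0.33 (adjusted p = 0.00426; 8.03% of genes), and in 0 members at 24 h (0.0544%; 1 by unadjusted limma p). Nnm doses differed in 0 members at each time (0% of genes; 1 by unadjusted limma p at each).

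Compounds with the same controls were compared directly. The labels give no amounts, so doses labelled alike need not be equal. A difference between compounds therefore cannot be told apart from a difference in dose. Nnm exceeded Kbr for EGR1 in all 4 comparisons, by 1.82 ± 0.33 and 2.26 ± 0.33 at the high dose and by 1.39 ± 0.33 and 1.12 ± 0.33 at the low dose (adjusted p = 0.000153, 5.24e-06, 0.00298 and 0.00883). In these, 4, 5, 2 and 3 members were called, where 42.6%, 56.7%, 32% and 42.8% of all genes were. DUSP6 was also higher with Nnm at 48 h, by 1.22 ± 0.27 at the high dose (adjusted p = 0.000491). EGR1 at the low dose and 48 h was lost without Kbr low replicate 1 or Nnm low replicate 3 (0.73 to 1.36 over single arrays left out). At the high dose IER2 was lost without Nnm replicate 1 or 3 at either time, or Kbr replicate 1 at 48 h (0.83 to 1.43 at 24 h and 0.64 to 1.41 at 48 h). SPRY4 was lost without any of 5 arrays at 24 h (0.78 to 1.16) and any of 10 at 48 h (0.39 to 1.40). With the replicate block, limma also called IER2 (0.75, adjusted p = 0.0163) and DUSP6 (0.66, adjusted p = 0.0363) at the low dose and 24 h, and IER2 (0.79, adjusted p = 0.00963) and SPRY2 (0.50, adjusted p = 0.0234) at 48 h. CdCl and Di differed in 4 members at 12 h (41.1% of genes) and 7 at 48 h (42.6%). At 48 h DUSP5 was lower with CdCl by 1.61 log2 units (−1.61 ± 0.10, adjusted p = 2.09e-08) and SPRY4 by 1.58 (−1.58 ± 0.19, adjusted p = 1.14e-05), while DUSP6 was higher by 0.88 ± 0.11 (adjusted p = 1.14e-05). The smaller differences at 48 h rested on single arrays: DUSP1 (−0.41 to −0.26) was lost without any of 2, SPRY2 (−0.40 to −0.29) without any of 3 and IER3 (0.19 to 0.31) without any of 5. Fk and Ra differed in 0 members at 12 h (0%; 2 by unadjusted limma p) and 0 at 48 h (7.39%; 0 by unadjusted limma p).

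The controls themselves moved with time in some families. In the CdCl and Di controls 6 members differed between 48 and 12 h, where 48.9% of all genes did: DUSP6 fell by 0.89, DUSP5 by 0.83, DUSP1 by 0.79, SPRY4 by 0.68 and SPRY2 by 0.45, and IER3 was 0.28 higher, the last lost without 12 h replicate 2 or 3 or 48 h replicate 3 (0.22 to 0.34). The DUSP5 controls read 8.84, 8.94 and 8.93 at 12 h and 8.01, 8.06 and 8.14 at 48 h. The fall of DUSP1 was that of 201041_s_at, which stood for the gene. Its second probe set, 201044_x_at, was higher at 48 h than at 12 h. In Ota controls EGR1 fell by 0.73 and DUSP1 by 0.50 from 24 to 72 h (28.8% of genes), and both calls rested on single controls. EGR1 was lost without 24 h replicate 2 or 3 or 72 h replicate 1 or 3 (−0.93 to −0.58), and DUSP1 without 24 h replicate 1 or 72 h replicate 2 (−0.53 to −0.45). The CsA, Aa, Nnm and Kbr, and Fk and Ra controls gave 0 calls each (13.5%, 1.25%, 0.598% and 16% of genes; 0, 1, 0 and 0 by unadjusted limma p). With the replicate block IER3 passed in the CsA controls (0.52, adjusted p = 0.0149).

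The change from control differed between the times in all 9 members with Di (33.6% of all genes), in 8 with Ota high (53.4%), in 3 each with Aa high (18.8%) and Ota low (6.3%), and in DUSP5 and DUSP6 with CdCl (30.4%). Some of these calls rested on single arrays. EGR1 with Ota low was lost without any of 10 arrays (1.02 to 1.37 over single arrays left out) and SPRY2 with Ota high without any of 7 (0.51 to 1.06). With Di, IER2 was lost without any of 7 (−0.60 to −0.37) and IER3 without any of 5 (0.32 to 0.47). The response differed in 0 members in limma without a block with CsA, Aa low, Nnm high, Nnm low, Kbr high, Kbr low, Fk and Ra, where 0%, 1.31%, 0%, 0%, 1.89%, 0%, 0% and 0.0459% of all genes did and 1, 2, 1, 0, 2, 2, 0 and 0 members had an unadjusted p under 0.05. With the replicate block, limma called IER3 with Aa low (0.85, adjusted p = 0.0287), IER3 (1.55) and DUSP1 (1.07) with Kbr high (adjusted p = 0.0302 each), and SPRY2 (0.59, adjusted p = 0.0227), SPRY4 (1.45, adjusted p = 0.0216) and PHLDA1 (0.52, adjusted p = 0.028) with Aa high. DUSP1, DUSP5 and DUSP6 levels in the CdCl and Di controls were themselves lower at 48 h by the probe sets that stood for them. The second DUSP1 probe set was higher there at 48 h. By that probe set the change with CdCl was 2.89 at 12 h and 1.525 at 48 h.

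Other genes of the pathway were counted from lists, with the shares of all genes called higher and lower in brackets. The groups given for each list are examples from the 26 treated groups. Of 27 components of the cascade, 22 were tested in at least 1 family; in Kbr high 48 h 2 rose and 7 fell of 21 (22.2% and 28.9%), with a median of −0.35 against −0.07 for all genes. In Ota high 24 h 2 rose and 12 fell of 21 (21.4% and 43.6%), with a median of −0.50 against −0.29. Aa high 48 h went the same way, with 1 up and 9 down of 19 (29.8% and 34.5%) and a median of −0.35 against −0.04. Some other groups did not share this direction: 9 rose and 6 fell in Ota high 72 h (25.3% and 37.9%). In CdCl 48 h 7 rose and 6 fell (22.9% and 23.5%), and in Di 48 h 7 rose and 4 fell (21.4% and 25.9%). RPS6KA3, an ERK-activated kinase, fell by 1.62 ± 0.24 in Kbr high 48 h (adjusted p = 8.19e-06) and rose by 1.70 ± 0.15 in Ota high 72 h (adjusted p = 1.46e-07). GAB1, a docking protein of receptor signalling, fell by 1.23 ± 0.19 in Kbr high 48 h (adjusted p = 1.54e-05).

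Of 19 other feedback regulators, 16 were tested. In Di 48 h 9 rose and 2 fell of 15 (21.4% and 25.9%), with a median of 0.42 against −0.02. In Ota high 24 h 8 rose and 5 fell of 15 (21.4% and 43.6%), with a median of 0.37 against −0.29. DUSP10, a phosphatase that prefers JNK and p38, rose by 3.37 ± 0.27 in Ota high 24 h (adjusted p = 3.65e-08), where DUSP1, DUSP5 and DUSP6 fell, and by 2.91 ± 0.17 in CdCl 48 h (adjusted p = 2.92e-09). DUSP3 rose by 0.81 ± 0.11 in Aa high 24 h (adjusted p = 3.79e-05). Over the 26 treated groups it was called higher in 8 and lower in 4, among the latter Nnm low 48 h (−0.74).

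Of 35 other immediate early or ERK-dependent transcripts, outside the FOS and JUN families, 31 were tested. With Di at 48 h 15 rose and 6 fell of 31 (21.4% and 25.9%), with a median of 0.26 against −0.02. In Aa high 48 h 15 rose and 7 fell of 29 (29.8% and 34.5%), with a median of 0.71 against −0.04. In Ota high 24 h 9 rose and 13 fell of 29 (21.4% and 43.6%). The median of −0.23 there lay near that of all genes, −0.29. ATF3, which encodes a transcription factor induced by stress, rose by 7.16 ± 0.28 in CdCl 12 h (adjusted p = 4.58e-11) and by 6.89 ± 0.43 in Aa high 48 h (adjusted p = 9.35e-09). Over the 26 treated groups ATF3 was called higher in 10 and lower in 2, among the latter Ota high 72 h (−0.99). ETV1, an ETS factor regulated by ERK, fell by 2.34 ± 0.18 in Kbr high 48 h (adjusted p = 1.32e-09) and by 1.36 ± 0.16 in Di 48 h (adjusted p = 4.98e-06). In both, EGR1 and DUSP6 fell too. In Ota high 24 h, where EGR1 and DUSP6 also fell, ETV1 rose by 0.96 ± 0.13 (adjusted p = 1.27e-05), and in Ota high 72 h, where EGR1 fell, it rose by 0.73 ± 0.13 (adjusted p = 0.000176).

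Across the 26 changes, whose points share control arrays, the members followed one another only in part. Pearson r was 0.66 for IER3 with DUSP1 and for DUSP1 with DUSP5, 0.65 for SPRY2 with SPRY4 and 0.56 for EGR1 with DUSP6, and −0.28 for EGR1 with DUSP5. Outside the members, the genes with the most similar changes were ZFYVE19 for IER2 (r = 0.93), HSP90AA1 and STIP1 for DUSP5 (0.86 each), LRRC8C for DUSP6 (0.85), AKR1C2 for DUSP1 (0.83), ZNF600 for IER3 (0.82), LTB for EGR1 (0.80), ITGB5 for SPRY4 (0.76) and NT5E for SPRY2 (0.69). For PHLDA1 it was CC2D1B at 0.84, or 0.30 with the mean of all probe sets. The second in rank were LRRC37A4P, STIP1, ITGB8, ABHD5, UBE2Q1, DHTKD1, B3GNT5, NLN and TTPAL in the same gene order. With the mean of probe sets UBE2Q1 turned from 0.79 to −0.21, and NLN and TTPAL dropped to 0.33 and 0.34. These are the highest of 10523 genes compared and are descriptions.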

How the data were processed

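Total RNA of HK-2 cultures was measured on Affymetrix arrays. GCRMA is named in the submitters' processing notes; it corrects background, normalizes between arrays and summarizes probes; its version is not given in the sources used here. The number of arrays limits the precision of every value. The deposited log2 values were used unchanged: 54675 probe sets, of which 41091 carry 1 symbol.

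The table was analysed in limma 3.58.1 (R 4.3.3), 1 model of group means per control family, with empirical Bayes moderation and Benjamini-Hochberg adjustment over all genes tested (10806 to 11138 per family). A gene was tested when log2 exceeded 4 on at least 3 arrays. Changes are treated minus control of the same time. Single probe sets were adjusted over all probe sets tested. Alternatives were quantile normalization, no filter or a higher one, the mean of probe sets or the second one, a variance trend, other sets of arrays in the fit, the replicate block and leaving out each array. Tables and figures used Python 3.11.15, and the fitting code was tested on simulated data.

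The members, lists and alternatives were chosen with earlier results of these data known. The genes named are all members, the 2 genes per list called in most groups, and the 2 most similar in change per member. P-values measure the spread between labelled biological replicates.

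Replicate numbers were checked as pairs through the correlation of residuals. All pairs exceeded 0.1 in CsA (lowest r 0.534), Aa (0.28) and Nnm with Kbr (0.139), but not in Ota (−0.0542), Fk with Ra (−0.176) or CdCl with Di (−0.274).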

Additional observations from a re-analysis of the deposited data

Results flagged for a closer look

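In the following cases the change from control differed between the earlier and the later time by limma's interaction test (adjusted p under 0.05), each value being the later change minus the earlier one in log2 units. With Di all 9 tested members differed: EGR1 by −2.61, IER2 by −0.49, IER3 by 0.39, DUSP1 by 1.78, DUSP5 by 3.37, DUSP6 by −1.72, SPRY2 by 0.72, SPRY4 by 1.65 and PHLDA1 by 1.14 (33.6% of all genes did). With Ota high 8 members differed: EGR1 by −1.07, IER2 by 0.82, IER3 by 1.79, DUSP1 by 1.86, DUSP5 by 3.18, DUSP6 by 1.61, SPRY2 by 0.82 and SPRY4 by 1.42 (53.4% of all genes did). In Ota high the median of all genes shifted by 0.20 between the times, and the 24 h arrays have low upper quartiles. By its second probe set DUSP1 with Di gave 0.80 at 12 h and 1.92 at 48 h, both called.

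With Ota low EGR1 differed by 1.17, IER2 by 0.92 and DUSP1 by 0.95 (6.3% of all genes did). EGR1 with Ota low was lost without any of 10 single arrays, SPRY2 with Ota high without any of 7, and IER2 and IER3 with Di without any of 7 and 5. With Aa high EGR1 differed by 2.14, IER3 by 0.93 and DUSP5 by 1.34 (18.8%). With CdCl DUSP5 differed by 0.54 and DUSP6 by −0.96 (30.4%). By its second probe set DUSP1 with CdCl gave 2.89 at 12 h and 1.525 at 48 h, both called.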

How the results depend on the processing

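Of 73 calls against control, 17 were lost on leaving out some single array, 32 further tests passed on leaving out one, and none reversed. The calls per family ranged over single arrays left out from 0 to 0 in CsA, 16 to 21 in Aa (18 with all arrays), 14 to 26 in Nnm with Kbr (17), 16 to 22 in Ota (19), 0 to 1 in Fk with Ra (0) and 18 to 21 in CdCl with Di (19). They ranged from 17 to 22 for dose (19), 23 to 29 for the later against the earlier response (25), 7 to 9 for control cultures over time (8) and 23 to 29 for compounds sharing controls (25). The highest count in Nnm with Kbr, 26, came without Nnm high 24 h replicate 2, and the 1 in Fk with Ra, SPRY2 in Ra 48 h, without Fk 12 h replicate 3.

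One fit of all arrays gave 10 calls in Aa, 2 in Fk with Ra, 9 in CdCl with Di, 6 for dose, 7 for the response over time, 1 for controls over time and 16 for compounds sharing controls. Quantile normalization gave 1 in Fk with Ra, the arrays of each comparison alone gave 2, and leaving out both arrays that stand apart, chosen after seeing the data, gave 3. The mean of probe sets gave 5 for controls over time. It also reversed PHLDA1 in Aa high 24 h (0.56), Aa low 24 h (0.070) and Aa low 48 h (0.62); the second probe set reversed DUSP1 (0.41) and PHLDA1 (0.45) in the CdCl and Di controls over time and PHLDA1 in CdCl against Di at 48 h (0.39). The causes were not tested.

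With the replicate number as a block the pairing gave 24 calls in Aa, 24 in Nnm with Kbr, 21 in Ota, 20 in CdCl with Di and 0 in CsA and in Fk with Ra, 25 for dose, 33 for the response over time, 9 for controls over time and 29 for compounds sharing controls; it lost no call against control and added 16. A further refit of the Nnm and Kbr family, without the 4 Nnm arrays numbered 2, was tried after seeing the values and gave more calls. It was withdrawn and is not used, because those arrays had been picked for lying nearer to the controls, so leaving them out selects on the outcome.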
